A study of Mus musculus with 6 samples.

Results

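MHC class I antigen presentation was examined through 10 genes: the classical heavy chains H2-K1 and H2-D1, the light chain gene B2m, the peptide transporter genes Tap1 and Tap2, the peptide loading and editing genes Tapbp, Tapbpl and Calr, the peptide trimming gene Erap1, and the transactivator gene Nlrc5. They were matched by symbol, with no measured value in the rule, and all 10 were found among the 13709 rows of the count table and passed the low-count filter. Bulk RNA-Seq had been performed on CD4+YFP+CD25+ Tregs sorted from mice of the C57BL/6 strain, with 3 WT and 3 KO samples. WT mice carried Foxp3Cre alone, and KO mice, their littermates, carried Foxp3Cre together with Zfp335 fl/fl. Foxp3Cre is a fusion of YFP and Cre made from the Foxp3 locus in both genotypes, so that Cre acts in cells that express Foxp3, and in KO mice it removes the floxed part of Zfp335, a zinc finger regulator of transcription. The mice were 2 weeks old per the study's methods, and the labels gave both lymph nodes and spleen as the source. Every Treg of a KO mouse was exposed to Cre, so changes made within the cell and changes brought by its surroundings in the mouse cannot be told apart. No source stated how many mice went into a sample, and p-values measure the spread between these samples.

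Class I molecules display short peptides from a cell's own proteins to CD8+ T cells and are also read by NK cells. A heavy chain pairs with beta-2 microglobulin in the endoplasmic reticulum (ER), where the TAP transporter brings in peptides cut by the proteasome, tapasin and calreticulin hold the empty molecule at the transporter, and an ER aminopeptidase trims the peptides to length. Nearly all nucleated cells, T cells included, carry class I on their surface, and interferons and the transactivator NLRC5 raise the expression of many genes of the pathway.

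The samples were checked before the genes were compared. Total counts per sample ranged from 32032631 to 40728419. Zfp335 was 94.3 to 103 CPM (counts per 1000000 of the TMM-scaled library total) in WT and 37.0 to 40.2 CPM in KO, with a log2 fold change of -1.37 (adjusted p 2.14e-05 by edgeR, SE 0.07). WT replicate 3 stood apart from WT replicates 1 and 2 on the second principal component, so values without it are given for the class I genes that it moved most. Foxp3, which defines Tregs, was present in every sample but fell from 738, 642 and 1190 CPM in WT to 459.7, 472 and 463 CPM in KO (log2 fold change -0.88, adjusted p 0.0122 by edgeR), and it was at -0.57, under the fold cutoff, without WT replicate 3. Ikzf2, the gene of the Treg factor Helios, fell by 1.11 on the log2 scale (adjusted p 6.07e-05 by edgeR). Of the 6 Treg markers listed, these 2 were called, both lower, where 12.5% of all genes were called lower. By the fitted values 5 were lower and 1, Cd4, was higher. Cd4 was 646 to 682 CPM in WT and 765 to 814 CPM in KO (log2 fold change 0.26, adjusted p 0.0143 by edgeR). Il2ra overlapped between the genotypes. The 6 markers summed to 3930 to 5100 CPM in WT, with WT replicate 3 the highest, and 3310 to 3410 CPM in KO. The part of these markers in the class I differences was not tested. Markers of other cells summed to less than these, but not equally so. The 7 myeloid and dendritic cell markers found had 9.16 to 21.2 CPM in WT and 45.8 to 49.3 CPM in KO. Higher sums were those of the class II genes, 78.5 to 146 CPM in WT and 220 to 235 CPM in KO. The 5 stroma and erythroid markers had 225 to 270 CPM in WT and 165 to 175 CPM in KO, most of it from Pecam1.

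Most steps of the class I pathway were modestly higher in KO Tregs, while the heavy chain gene H2-K1 was lower in every KO sample. By the fitted values 9 of the 10 genes were higher in KO (47.1% of all genes tested) and H2-K1 was lower. Tap1, Tap2, Tapbp, Tapbpl, Calr, Erap1 and Nlrc5 were higher at an adjusted p under 0.05 whatever the fold size, and 19.2% of all 13594 genes tested were higher by the same measure (38.6% in either direction). None of the 10 was lower by it with all samples and TMM scaling in edgeR, or in DESeq2, against 19.4% of all genes. H2-K1 was the 1 lower gene at an unadjusted p under 0.05, and it was lower by the adjusted p without WT replicate 3 or with library totals alone. When a fold change above 1.5 was also required, together with a p under 0.05 and an adjusted p under 0.1, Calr was the single gene called, where 11.9% of all genes were called higher and 24.4% in either direction. Every KO sample lay above every WT sample for the same 7 genes (26.2% of all genes tested), and below every WT sample for H2-K1 (27.6% of all genes tested). The median log2 fold change was 0.39 over the 10 genes and -0.04 over all genes tested. In these bulk samples a change in RNA per cell and a change in the share of cells that express a gene cannot be told apart.

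**Figure D1:**
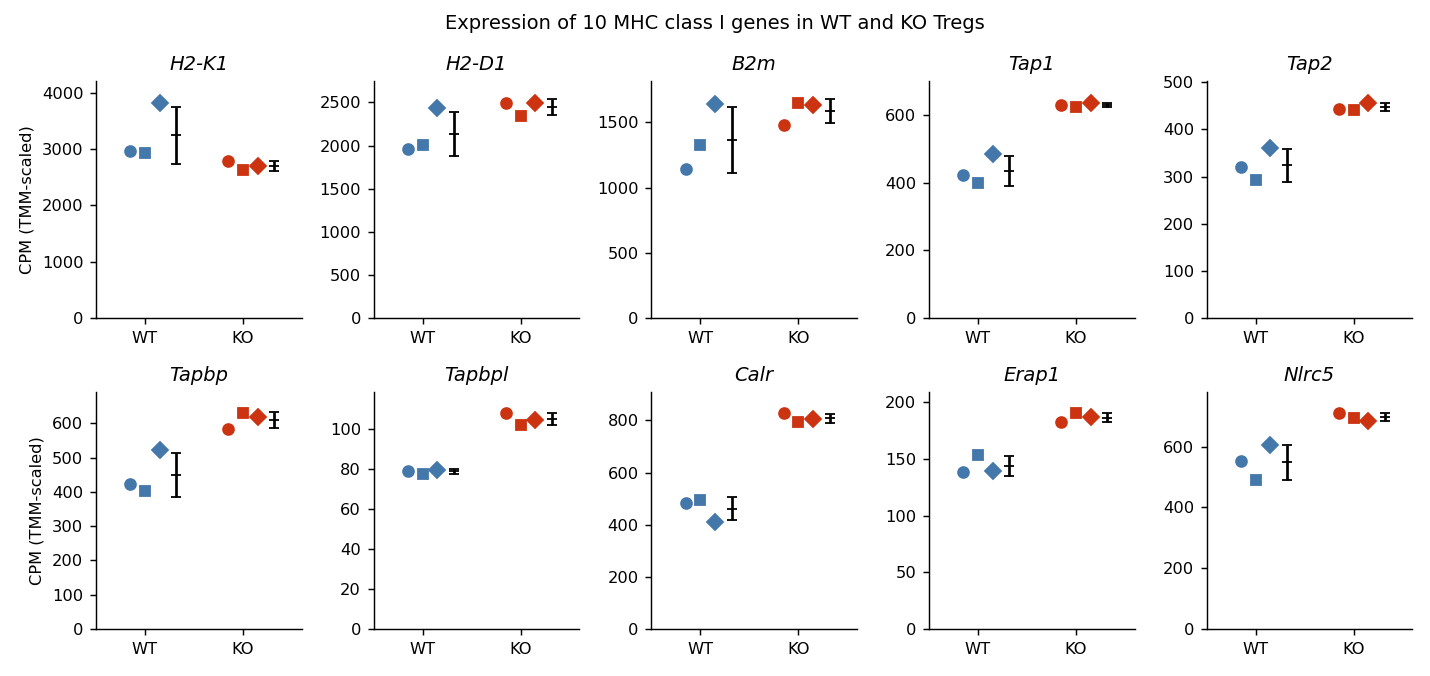
Expression of each class I gene in every sample, in CPM on TMM-scaled totals, with circles, squares and diamonds for replicates 1, 2 and 3 of WT (blue) and KO (red), and the mean with its SD in black. All 3 KO samples lie above all 3 WT samples for 7 genes, lie below them for H2-K1, and overlap with them for H2-D1 and B2m.

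The heavy chains carry the peptide and are read by the T cell receptor. H2-K1 lies on chromosome 17 at 33996017 to 34000347 (mm10, minus strand), close to the centromeric end of the MHC. The WT samples had 2966, 2935 and 3821 CPM and the KO samples 2793, 2619.6 and 2696 CPM, each in the order of replicates 1, 2 and 3, which also holds for the genes that follow. The KO samples were the lower ones without overlap, although the nearest values, 2793 and 2935 CPM, were close. KO had 83.4% of the WT mean, at a log2 fold change of -0.26 (95% interval -0.51 to -0.01, adjusted p 0.0942 by edgeR, SE 0.11), which was short of the fold cutoff. Much of its size came with WT replicate 3, and without that sample the log2 fold change was -0.13 (adjusted p 0.0287).

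H2-D1, the other classical heavy chain of this strain, lies on chromosome 17 at 35262730 to 35267499 (plus strand). It was 1965, 2005 and 2434 CPM in WT and 2498, 2339 and 2497 CPM in KO. Here WT replicate 3 reached the KO range while WT replicates 1 and 2 were below it. The log2 fold change was 0.20 (95% interval -0.02 to 0.41, adjusted p 0.14 by edgeR, SE 0.09), so a difference beyond the spread between replicates was not shown. Without WT replicate 3 it was 0.30 (adjusted p 0.000129), and all KO samples were then above both WT samples. Related class I genes share stretches with both genes. Of the 50-base stretches of H2-K1 transcripts, 6.87% occurred exactly in a transcript of another gene, most of them in H2-D1, and 0.0% of its 100-base stretches did. For H2-D1 the shares were 13.9% and 4.09%. The authors' aligner kept a single alignment per read and the read length was not given, so counts of the 2 genes carry this uncertainty.

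The promoters of the heavy chains are shown because the fitted fold changes of the genes had opposite signs while their upstream sequences are close copies. RefSeq promoter windows (GRCm38.p6, the assembly of mm10) matched 7 of the 10 genes, without Tap2, Tapbpl and Nlrc5. The 250 bases before the start of H2-K1 are at chr17:34000348-34000597 on the minus strand, those of H2-D1 at chr17:35262844-35263093 on the plus strand, and those of B2m, the partner of both chains, at chr2:122147437-122147686 on the plus strand. Capitals mark matches, on either strand, to the NF-kappaB element of class I enhancer A (GGGGA, any 2 bases, CCC), the X2 box (TGACGCG), the Y box (CCAAT) and the interferon-stimulated response element (GAAA, any 2 bases, GAAA).
H2-K1: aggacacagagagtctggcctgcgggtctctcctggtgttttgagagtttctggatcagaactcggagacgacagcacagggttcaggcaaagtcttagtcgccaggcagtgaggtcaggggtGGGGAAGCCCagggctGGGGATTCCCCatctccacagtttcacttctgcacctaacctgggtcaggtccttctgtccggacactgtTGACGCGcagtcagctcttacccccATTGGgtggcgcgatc
H2-D1: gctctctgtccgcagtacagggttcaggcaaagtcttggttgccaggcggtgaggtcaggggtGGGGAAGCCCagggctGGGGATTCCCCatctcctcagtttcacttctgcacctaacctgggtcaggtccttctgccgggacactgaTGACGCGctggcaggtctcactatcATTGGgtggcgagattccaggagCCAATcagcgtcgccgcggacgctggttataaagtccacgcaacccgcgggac
B2m: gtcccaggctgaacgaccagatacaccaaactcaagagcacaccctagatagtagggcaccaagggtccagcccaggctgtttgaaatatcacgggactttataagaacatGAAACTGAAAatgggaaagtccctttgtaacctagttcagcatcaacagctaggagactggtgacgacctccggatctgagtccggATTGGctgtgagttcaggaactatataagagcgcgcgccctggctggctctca
A local alignment of the heavy chain windows held 177 columns, of which 161 (91.0%) were identical. Both windows held the same 2 matches to the NF-kappaB element, GGGGAAGCCC and GGGGATTCCC (the latter also matched on the other strand at a shift of 1 base), followed by the X2 box and a Y box read on the other strand. Counted from the RefSeq start, the X2 box lay 41 to 35 bases upstream in H2-K1 and 101 to 95 bases upstream in H2-D1, which also had a Y box 53 to 49 bases upstream. The GENCODE gene of H2-D1 begins before its RefSeq start and includes this window, so these distances depend on the annotation. B2m held the interferon element 139 to 130 bases before its start and a Y box 53 to 49 bases before it. Among all 32851 promoter windows of this length, 1.41% held the NF-kappaB element, 1.56% the X2 box, 33.85% the Y box and 2.98% the interferon element. Of the other windows, those of Tap1 and Tapbp held Y boxes, that of Calr held Y boxes and 1 match to the NF-kappaB element, and that of Erap1 held none of the 4 motifs. A match describes letters and not a bound site, and an exact pattern misses variants of an element. Both heavy chain windows held the letters tttcacttct, which resemble the interferon element on the other strand but fall outside its pattern. The lack of a mark in them is therefore not a lack of such an element.

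B2m encodes beta-2 microglobulin, the light chain shared by all class I molecules, and lies on chromosome 2 at 122147686 to 122153083. It was 1140.5, 1324 and 1639 CPM in WT and 1481, 1652 and 1629 CPM in KO. The groups overlapped, since WT replicate 3 was within the KO range. The log2 fold change was 0.21 (95% interval -0.08 to 0.51, adjusted p 0.229 by edgeR, SE 0.13). This value rested on single WT samples, at 0.36 without WT replicate 3 (adjusted p 0.000326) and 0.10 without WT replicate 1 (adjusted p 0.513).

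Tap1 and Tap2 encode the chains of the transporter that moves peptides into the ER. Tap1 lies on chromosome 17 at 34187553 to 34197225 and was 423, 399 and 484 CPM in WT and 629, 622 and 637 CPM in KO. All KO samples were above all WT samples, by a log2 fold change of 0.53 (adjusted p 0.00206 by edgeR, SE 0.08), a 1.44-fold difference that stopped short of the cutoff. Without WT replicate 3 it was 0.61 (adjusted p 1.36e-07), which was past it. Tap2, at 34203527 to 34216321 on the same chromosome, was 320, 292 and 360 CPM in WT and 442, 442 and 457 CPM in KO. The groups were again apart, with a log2 fold change of 0.47 (adjusted p 0.00435 by edgeR, SE 0.09). The immunoproteasome subunit genes Psmb9 and Psmb8 lie next to and between them. Psmb9 rose from 127, 114 and 102 CPM in WT to 180, 182 and 187 CPM in KO (by edgeR a log2 fold change of 0.68 with SE 0.09 and an adjusted p of 0.000899). Psmb8 was 277 to 307 CPM in WT and 405 to 434 CPM in KO, a log2 difference of 0.51 (adjusted p 0.0011 by edgeR) that did not reach the fold cutoff. Exons of Tap1 and Psmb9 overlap by 212 bases, and exons of Tap2 overlap those of the noncoding gene Gm15821 by 533 bases, so part of these counts may belong to the neighbor.

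Tapasin, calreticulin and the tapasin-related protein TAPBPR act on the class I molecule before it leaves the ER. Calr, which encodes calreticulin, a chaperone for many ER glycoproteins, showed the largest fold change of the 10 genes. It lies on chromosome 8 at 84841850 to 84846934 and rose from 482, 493 and 411 CPM in WT to 828, 795 and 804 CPM in KO. The groups were far apart, and the log2 fold change was 0.81 (adjusted p 0.000362 by edgeR, SE 0.08), a 1.75-fold rise. Calr was called in each of the 14 other settings tried.

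Tapbp encodes tapasin, which bridges the class I molecule and TAP, and lies on chromosome 17 at 33915899 to 33929292. It was 422, 402 and 523 CPM in WT and 584, 629.6 and 618 CPM in KO. KO was the higher group throughout, by 0.44 on the log2 scale (adjusted p 0.0125 by edgeR, SE 0.11), and 0.56 without WT replicate 3. The adjusted p was 0.0551 without KO replicate 2 and 0.0515 without KO replicate 3. Exons of the antisense gene Gm19412 overlap those of Tapbp by 904 bases, and 22.4% of its 50-base stretches were shared with other genes, the highest share among the 10. Tapbpl encodes TAPBPR, which exchanges peptides outside the loading complex, and lies on chromosome 6 at 125223933 to 125231860. It had the most even WT values, 79.2, 77.5 and 79.5 CPM in WT and 108, 102 and 105 CPM in KO. The log2 fold change was 0.41 (adjusted p 0.00156 by edgeR, SE 0.06), a 1.33-fold difference.

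Erap1 encodes the ER aminopeptidase that shortens peptides for class I, and lies on chromosome 13 at 74639568 to 74693201. It was 139, 154 and 139 CPM in WT and 182, 190.3 and 187 CPM in KO. The KO samples were all higher, by 0.37 on the log2 scale (adjusted p 0.00404 by edgeR, SE 0.07). Its exons overlap those of Cast by 834 bases, so its count is uncertain to that extent.

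Nlrc5 encodes the class I transactivator, which does not bind DNA itself and acts through the RFX, CREB or ATF, and NF-Y factors at promoter boxes. Of these boxes the X2 and Y boxes were marked above, and a separate RFX box was not searched for. Nlrc5 lies on chromosome 8 at 94434356 to 94527272. It was 552, 489 and 605 CPM in WT and 709.8, 695 and 685 CPM in KO. The groups did not overlap, and the log2 fold change was 0.34 (adjusted p 0.0159 by edgeR, SE 0.09), a 1.27-fold difference. The adjusted p was 0.0652, 0.061 and 0.056 without KO replicates 1, 2 and 3. Of the 10 promoter factor genes listed with it, 1 was called and it fell, against 24.4% of all genes called in either direction. This was Rfx5, the DNA-binding subunit of the RFX complex, at 64.0 to 70.7 CPM in WT and 37.0 to 39.8 CPM in KO (by edgeR a log2 fold change of -0.83 with SE 0.08 and an adjusted p of 0.00021). At an adjusted p under 0.05 at any fold size, 3 of these factors were higher, Nfyc, Atf1 and Nfkb1, and 3 were lower, Rfx5, Rfxank and Creb1, against 38.6% of all genes in either direction.

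**Figure D2:**
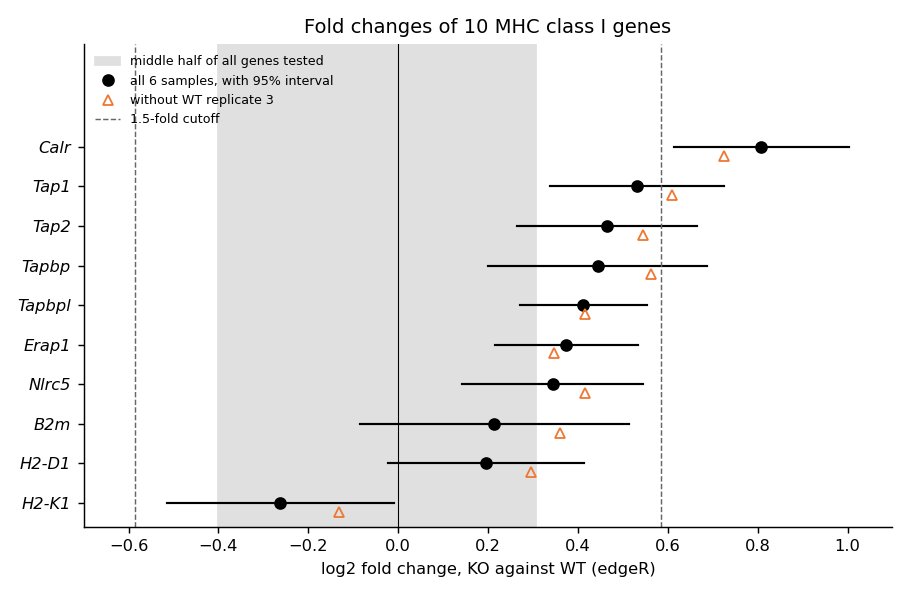
Log2 fold change of each class I gene in KO against WT from edgeR, with points and 95% intervals for all 6 samples, triangles for the fit without WT replicate 3, a gray band for the middle 50% of all genes tested (-0.40 to 0.31), and dashed lines at the 1.5-fold cutoff. Calr, at 0.81, is the gene past the cutoff with all 6 samples, and H2-K1, at -0.26, is on the other side of 0. The triangles of H2-K1, H2-D1 and B2m lie to the right of their points, at -0.13, 0.30 and 0.36.

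Ratios of counts within a sample do not depend on how libraries are scaled, and they were used to compare the genes with each other. The H2-K1 to H2-D1 ratio was 1.51, 1.46 and 1.57 in WT and 1.12, 1.12 and 1.08 in KO. The mean was 1.51 ± 0.053 in WT and 1.11 ± 0.023 in KO (SD, n = 3 each, exact permutation test, two-sided, p = 0.1, adjusted p = 0.1 over 3 ratios). WT replicate 3, whose levels of both genes were the highest in WT, also had the highest ratio. The log2 difference was -0.45, and it lay between -0.48 and -0.43 when each sample was left out in turn. The ratio of H2-K1 plus H2-D1 to B2m was 4.32, 3.73 and 3.82 in WT and 3.57, 3.0 and 3.19 in KO, a log2 difference of -0.28 (exact permutation p = 0.1). The Tap1 to Tap2 ratio differed least, at 1.32, 1.37 and 1.35 in WT and 1.42, 1.41 and 1.39 in KO, a log2 difference of 0.07 (exact permutation p = 0.1). None of the 3 ratios overlapped between genotypes, and 0.1 is the smallest p that 3 samples against 3 allow.

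**Figure D3:**
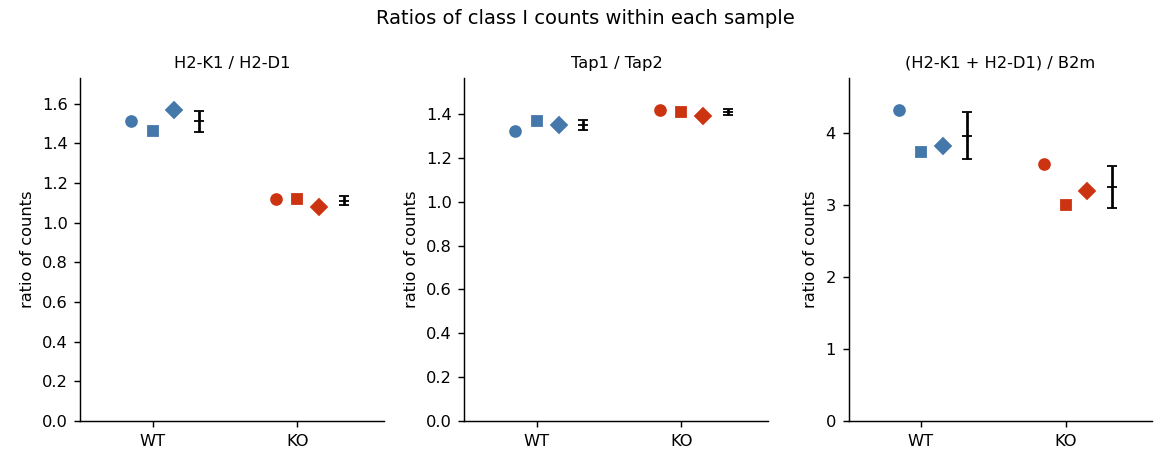
Ratios of counts within each sample for H2-K1 over H2-D1, Tap1 over Tap2, and H2-K1 plus H2-D1 over B2m, with circles, squares and diamonds for replicates 1, 2 and 3 of WT (blue) and KO (red), and the mean with its SD in black. The H2-K1 over H2-D1 ratio is 1.46 to 1.57 in WT and 1.08 to 1.12 in KO.

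Levels were compared between genes per length, as CPM per kilobase of the longest annotated coding transcript. The genes of the molecule itself, H2-K1, H2-D1 and B2m, were above the other 7 in both genotypes. In WT, H2-K1 was highest at 2002 ± 310.5 CPM per kilobase, followed by B2m at 1591 ± 293 and H2-D1 at 1016 ± 124 (SD, n = 3 each). The ranges of H2-K1 and B2m overlapped, and H2-D1 was below both. These 3 genes ranked 8, 16 and 50 among 13019 genes with a length. In KO the order was B2m at 1846 ± 108, H2-K1 at 1670.0 ± 53.8 and H2-D1 at 1163 ± 43.6 CPM per kilobase, again with B2m and H2-K1 overlapping. Calr followed at 212 ± 20.5 in WT and 370.3 ± 7.74 in KO. Tapbp and Tap1, which were not separable from each other in either genotype, were at 155 ± 22.3 and 148 ± 14.8 in WT. Below them came Tap2, Nlrc5, Tapbpl and Erap1, from 94.0 ± 9.95 down to 25.5 ± 1.54 CPM per kilobase in WT, in the same order in KO and with ranges that did not overlap. With the union of all annotated exons as the length, B2m was above H2-K1 in both genotypes, without overlap. The mean of Tap2 was above that of Tap1, although their ranges overlapped in WT. In KO the mean of H2-D1, 948 ± 35.5, was above that of H2-K1, 920.0 ± 29.7, but their ranges overlapped. H2-K1, H2-D1 and B2m together took 0.629% to 0.773% of all counts in WT and 0.652% to 0.673% in KO.

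The samples also differed in evenness. The coefficient of variation over 3 samples was 1.37% to 18.4% in WT and 1.13% to 5.86% in KO, and it was lower in KO for 9 of the 10 genes, Tapbpl being the exception. This was not particular to class I genes. Over genes at large, the median squared difference within a pair of samples, relative to counting error, was 5.27 to 6.07 in KO. In WT it was 10.07 for replicates 1 and 2, and 25.82 and 26.26 for the pairs with replicate 3. WT replicate 3 was the highest WT sample for 8 of the 10 genes, the exceptions being Calr, where it was the lowest, and Erap1. Relative to the mean of WT replicates 1 and 2 it was 1.33-fold for B2m, 1.29-fold for H2-K1, 1.27-fold for Tapbp and 1.23-fold for H2-D1, and 0.842-fold for Calr. Genes that interferons induce went both ways in that sample, with Irf1 at 399 CPM against 234 and 211 CPM and Stat2 at 206 CPM against 113 and 110.3 CPM, but Psmb9 at 102 CPM against 127 and 114 CPM and Psme2 at 161 CPM against 189 and 199 CPM. Without WT replicate 3, all 10 genes had an adjusted p under 0.05 in edgeR, H2-K1 as the single lower one, where 51.7% of all genes had one in that fit. The part of this sample's state in the genotype differences was not tested.

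The rest of the pathway was then examined by lists. In the peptide generation list, which holds immunoproteasome subunits, proteasome activators and cytosolic peptidases, 1 of 11 genes was called, Psmb9, and 6 of 11 were higher at an adjusted p under 0.05 at any fold size, where 11.9% and 19.2% of all genes were higher by these measures. The 6 were Psmb8, Psmb9, Psme1, Psme2, Psmb10 and Blmh, and the median log2 fold change of the list was 0.42. Npepps, an aminopeptidase, was 83.5 to 91.9 CPM in WT and 84.3 to 89.0 CPM in KO.

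All 4 ER folding partners were higher in every KO sample than in every WT sample (26.2% of all genes tested). Of the 4, 3 were called, where 11.9% of all genes were called higher. Hspa5, which encodes the chaperone BiP, rose from 416, 419 and 572 CPM to 781, 698 and 724 CPM (by edgeR a log2 fold change of 0.65 with SE 0.13 and an adjusted p of 0.00611), and the value was 0.81 without WT replicate 3. Canx, which encodes calnexin, rose from between 235 and 267 CPM in WT to between 384 and 404 CPM in KO (log2 fold change 0.64), and Pdia3, the disulfide isomerase of the loading complex, from between 393 and 444 CPM to between 623 and 656 CPM (0.60). Uggt1, the glucosyltransferase that works with TAPBPR, was 153 to 172 CPM in WT and 229.5 to 250.01 CPM in KO, at 0.55, under the fold cutoff. These fold changes stood near the cutoff, and some were under it when a sample was left out, Hspa5 at 0.57 without WT replicate 1 or 2, Canx at 0.58 without WT replicate 3, and Pdia3 at 0.55 without WT replicate 1 and 0.58 without KO replicate 3. The list median was 0.62, beside 0.81 for Calr, which also serves glycoproteins other than class I.

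Of 20 nonclassical class I chains listed, 16 were in the table and tested. Called genes went both ways, with 2 higher and 2 lower, close to the 11.9% and 12.5% of all genes, and the median log2 fold change was 0.14. Cd1d1, which presents lipids, fell from 41.5, 39.2 and 45.0 CPM in WT to 21.5, 22.6 and 22.4 CPM in KO (by edgeR a log2 fold change of -0.92 with SE 0.09 and an adjusted p of 0.000237). Mr1, which presents vitamin B metabolites, fell from between 22.3 and 27.7 CPM to between 13.2 and 17.2 CPM (by edgeR a log2 fold change of -0.65 with SE 0.14 and an adjusted p of 0.00826). Without WT replicate 2 or KO replicate 2 the value of Mr1 was -0.55 and -0.54, under the fold cutoff. The genes called higher, Fcgrt and Hfe, stayed under 5 CPM in every sample. Among the Qa and Tla region genes, H2-Q4, H2-Q9 and H2-T23 were the most abundant, and H2-T23, which encodes the Qa-1 heavy chain, was 318, 323 and 499 CPM in WT and 520, 495 and 503 CPM in KO (log2 fold change 0.41, edgeR adjusted p 0.0898). These genes are similar in sequence, and reads may have been assigned among them. H2-K2, an annotated class I pseudogene next to H2-K1 that was singled out after its values were seen, fell from 43.7, 49.4 and 67.4 CPM to 25.1, 24.1 and 26.2 CPM (by edgeR a log2 fold change of -1.09 with SE 0.16 and an adjusted p of 0.00138). It lies at 33974659 to 33978827 on chromosome 17, and 9.38% of its 50-base stretches were shared with other genes.

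Genes of interferon signalling, which acts upstream of class I, were mixed. Of 14 genes, 4 were called higher and 1 lower, and at an adjusted p under 0.05 at any fold size 5 were higher and 4 lower. Over all genes 24.4% were called and 38.6% had such an adjusted p, in either direction. Ifng, the gene of interferon gamma, rose from between 2.64 and 4.54 CPM in WT to between 82.8 and 84.7 CPM in KO (log2 fold change 4.52, edgeR adjusted p 7.11e-06). Ifngr1, its ligand-binding receptor chain, rose from 128, 134 and 235 CPM to 410.1, 374 and 384 CPM (1.23), Jak2 rose by 0.89, and Irf1, a factor that binds interferon elements, rose from 234, 211 and 399 CPM to 587, 534 and 556 CPM (0.99, SE 0.22, adjusted p 0.00963). Without WT replicate 3 the log2 fold changes of Ifngr1, Jak2 and Irf1 were 1.57, 1.02 and 1.32. Ifnar2, a chain of the type I interferon receptor, fell from between 78.0 and 84.1 CPM to between 44.7 and 49.2 CPM (-0.81), and Ifngr2, the signalling chain for interferon gamma, was 56.4 to 58.6 CPM in WT and 37.9 to 40.4 CPM in KO (-0.56, under the fold cutoff).

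Class II genes, which present peptides to CD4+ T cells and mark B cells, dendritic cells and macrophages, were higher in KO, and 7 of 7 were called, where 11.9% of all genes were called higher. Their median log2 fold change was 1.32, and their summed level was 78.5 to 146 CPM in WT and 220 to 235 CPM in KO. H2-Eb1 rose from 4.46, 4.75 and 13.0 CPM to 24.8, 20.4 and 22.9 CPM (by edgeR a log2 fold change of 1.62 with SE 0.39 and an adjusted p of 0.0137), with WT replicate 3 as the highest WT sample. H2-Ab1 and H2-DMa rose by 1.48 and 1.32, and H2-Aa by 1.30, at an adjusted p of 0.0537 that was 0.115 to 0.138 when any sample other than WT replicate 3 was left out, so that its call was lost. Without WT replicate 3 the log2 fold changes were 2.30 for H2-Eb1, 2.12 for H2-Ab1, 1.67 for H2-DMa and 2.16 for H2-Aa. Myeloid and dendritic cell markers were higher in KO as given above, with 4 of 7 called, among them Itgam at 2.58 to 3.73 CPM in WT and 12.0 to 14.5 CPM in KO, while WT replicate 3 had the lowest sum, 9.16 CPM. The 5 B cell markers summed to 18.0 to 20.1 CPM in WT and 12.1 to 12.6 CPM in KO. The 5 CD8 T and NK cell markers summed to 12.9 to 19.0 CPM in WT and 27.0 to 28.9 CPM in KO. For the 5 stroma and erythroid markers the sums were 225 to 270 CPM in WT and 165 to 175 CPM in KO. Pecam1 made up most of these last sums, at 189 to 202 CPM in WT and 133 to 142 CPM in KO. Among the rest of that list, Epcam was lower in every KO sample, and Col1a1, Hbb-bs and Hba-a1 overlapped between the genotypes. Of the 5 neutrophil markers 2 were in the table, S100a8 and S100a9, with no count in WT and a sum of 3.57 to 5.42 CPM in KO. Every gene in the table had at least 60 counts in total, so these 2 were kept only through their KO counts. Their absence from WT therefore carries no weight of its own. In single-cell data from younger mice, the paper reports both genes as high in a Treg subset that accumulated in KO. The part of other cell types in the class I and class II differences was not tested.

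**Figure D4:**
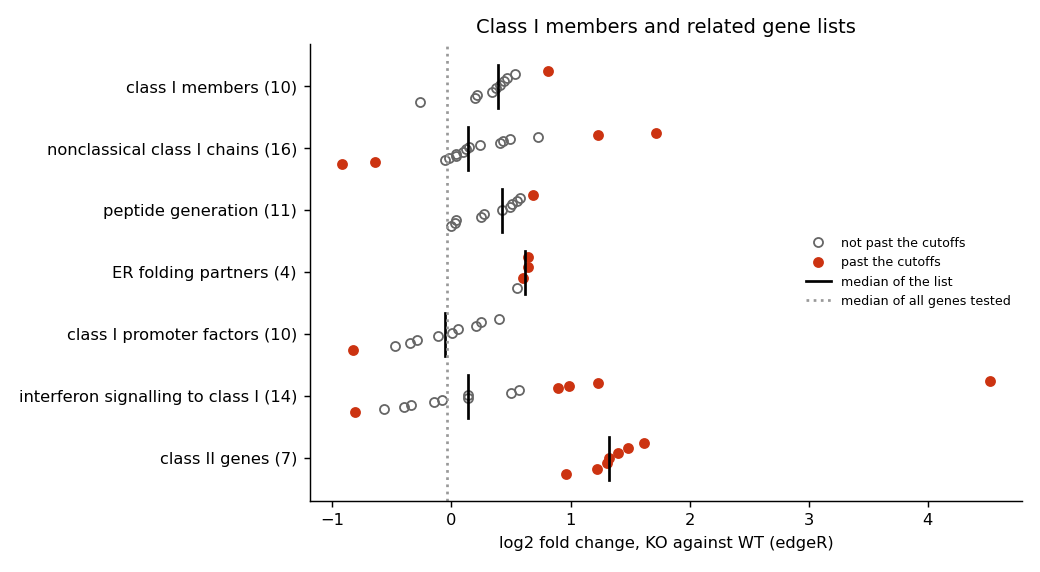
Log2 fold change of each gene in KO against WT from edgeR, for the class I genes and related lists with the number of genes tested in parentheses, filled where the gene passed the cutoffs, with a bar at each list's median and a dotted line at the median of all genes tested (-0.04). The medians are 0.39 for the class I genes, 0.42 for peptide generation, 0.62 for the ER folding partners and 1.32 for the class II genes.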

How the data were processed

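The data were gene counts from 6 Treg samples, 3 per genotype. SOAPnuke (read filtering), HISAT2 (alignment to mm10, 1 alignment kept for each read) and StringTie (quantification) are the tools that the study's methods name. HISAT2 and DESeq2 are also named in the submitters' processing notes. The authors deposited whole-number counts per gene without scaling. How they were made whole, the strand setting and the annotation are not given in the sources used here. No gene had fewer than 60 counts in total, so low genes were absent from the start.

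KO was compared with WT by the quasi-likelihood test of edgeR 4.0.16 (R 4.3.3) on counts, after filterByExpr (minimum count 10) and TMM scaling, without covariates, and p-values were adjusted by Benjamini-Hochberg over 13594 genes. Cutoffs were those of the study (fold change above 1.5, p under 0.05, adjusted p under 0.1). A second measure was an adjusted p under 0.05 at any fold size. SE is the log2 fold change over the square root of F. At 3 counts the smallest level told from 0 was 0.0747 to 0.0913 CPM, which covers counting error only. Ratios used an exact permutation test. The procedure was tested on simulated data.

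Positions, lengths and shared stretches came from the GENCODE M21 annotation and transcripts (GRCm38, which mm10 denotes). Nrdc was matched through its older symbol Nrd1. Listed genes without a row were not analysed here. Named genes are the 10 class I genes, Zfp335, Psmb8, Psmb9, and, per list, up to 4 called genes in each direction, by size, where the mean reached 5 CPM. Any other gene, such as H2-K2 and those high in WT replicate 3, was named after its values were seen. The genes and lists were chosen with earlier results of these data known. The alternatives were DESeq2 1.42.0, 2 other scalings, 2 other filters, 2 other cutoffs, a replicate block and leaving out each sample. Levels per length with the union of exons were added after the data were seen.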

Additional observations from a re-analysis of the deposited data

How the results depend on the processing

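The direction of each of the 10 class I genes was the same in all 14 alternative settings. The choice of cutoff moved the counts most. By an adjusted p under 0.05 at any fold size 5244 genes passed, 7 of them class I genes, and 1686 passed with glmTreat against 1.5-fold, of which Calr was the single class I gene. When each sample was left out in turn, 2867 to 3667 genes were called and 1 to 2 class I genes, the second being Tap1 without WT replicate 3. In the same fits the log2 fold change ranged from -0.33 to -0.13 for H2-K1, 0.14 to 0.30 for H2-D1 and 0.10 to 0.36 for B2m, the highest value of each being that without WT replicate 3, and 5 to 10 class I genes had an adjusted p under 0.05, Tapbp and Nlrc5 being those that lost it. Called genes numbered 2 to 6 among the nonclassical chains (6 without WT replicate 3, 2 without KO replicate 2) and 1 to 3 in peptide generation (3 without WT replicate 2). With library totals alone H2-K1 also had an adjusted p under 0.05 (0.0388, log2 fold change -0.30), while with DESeq2 it was at 0.0802. Replicates that share a number had correlations near 0 across genotypes (0.0377, 0.0404 and -0.0116). With 3 samples per genotype, these values cannot show whether such replicates shared a litter or batch. With the replicate block 3190 genes were called, Calr again being the single class I gene, and the 3 ratios kept their log2 differences of -0.45, 0.07 and -0.28 at a sign-flip p of 0.25, the smallest that 3 pairs allow. When each sample was left out in turn, the log2 difference in the ratio of H2-K1 plus H2-D1 to B2m ranged from -0.35 to -0.22.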
